A study of Mus musculus with 9 samples.

Results

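The genes that copy chromosomal DNA and supply its nucleotides were followed in CD11b+Gr1+ spleen cells, the surface phenotype of neutrophils, monocytes and their precursors. They were taken from the authors' deposited table of significant changes: rows whose symbol was among 33 listed replication genes, or whose definition named a DNA polymerase, primase, replication factor or minichromosome protein. The rule found 30 rows for 29 genes, out of 964 rows in that table and 31648 rows measured. Of these rows, 23 were found by symbol and 7 by definition only (Polh, Pole2, Polq, Prim2, Rfc1, Pola2 and Polg2). Of the 33 listed symbols, 22 had a row. The 11 without one were Pcna, Rrm2, Tk1, Gins2, Cdc6, Cdt1, Cdc45, Orc1l, Rfc3, Uhrf1 and Chaf1b, and apart from Cdc45, which has a row under its older symbol Cdc45l, they were not analysed here. The table holds rows that the authors selected on these same samples, so every difference between the groups below is a description and carries no test.

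The tumour-bearing group consisted of 6 L2-Cre;p120f/f mice, 1 array per mouse. The control group consisted of 3 pools, each combining cells of 3 mice of the genotype L2-Cre;p120+/f without disease. All animals carried L2-Cre, which is active in squamous epithelium (mouth, oesophagus and forestomach), and at least 1 floxed allele of p120, the catenin encoded by Ctnnd1. The labels give a mixed C57BL/6x129 background for every sample, while other label fields name an embryonic age, limb tissue and other genotypes that contradict the titles, and no usable age. The tumour, the homozygous floxed genotype and the use of single animals all follow the group, so their effects cannot be told apart. Within a pool the spread between its animals is averaged.

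Replication begins with licensing, when the ring of Mcm2 to Mcm7 is loaded onto origins, and continues with firing, when cyclin-dependent kinases and the GINS complex turn that ring into the working helicase. Primase and polymerase alpha then start each strand, polymerase epsilon extends the leading strand, the RFC complex loads the sliding clamp, and Fen1 and Lig1 finish the Okazaki fragments of the lagging strand. Granulocyte precursors divide and express these genes, while mature neutrophils have left the cell cycle.

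Of the 30 rows, 29 were higher in the tumour-bearing mice and 1, the mitochondrial Polg2, was lower. In each row the groups did not overlap. Over all rows measured, the groups did not overlap with the mice higher in 15.4% and with the mice lower in 9.39%, the authors listed 1.62% as higher and 3.05% in either direction, and limma's adjusted p was under 0.05 for 23.2% (14.3% higher). With a change of at least 2-fold as well, limma called 3.54% (1.77% higher). Since the rule took its rows from this contrast, nothing is read from the members' own count. The median difference of the 30 rows was 1.70 on the log2 scale, beside 1.36 for the other 484 rows the authors listed as higher and 0.02 for all rows. The difference was at least 3-fold in 18 rows and at least 4-fold in 3. In bulk samples such as these, fewer cells of a type and less RNA per cell cannot be told apart.

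**Figure D1:**
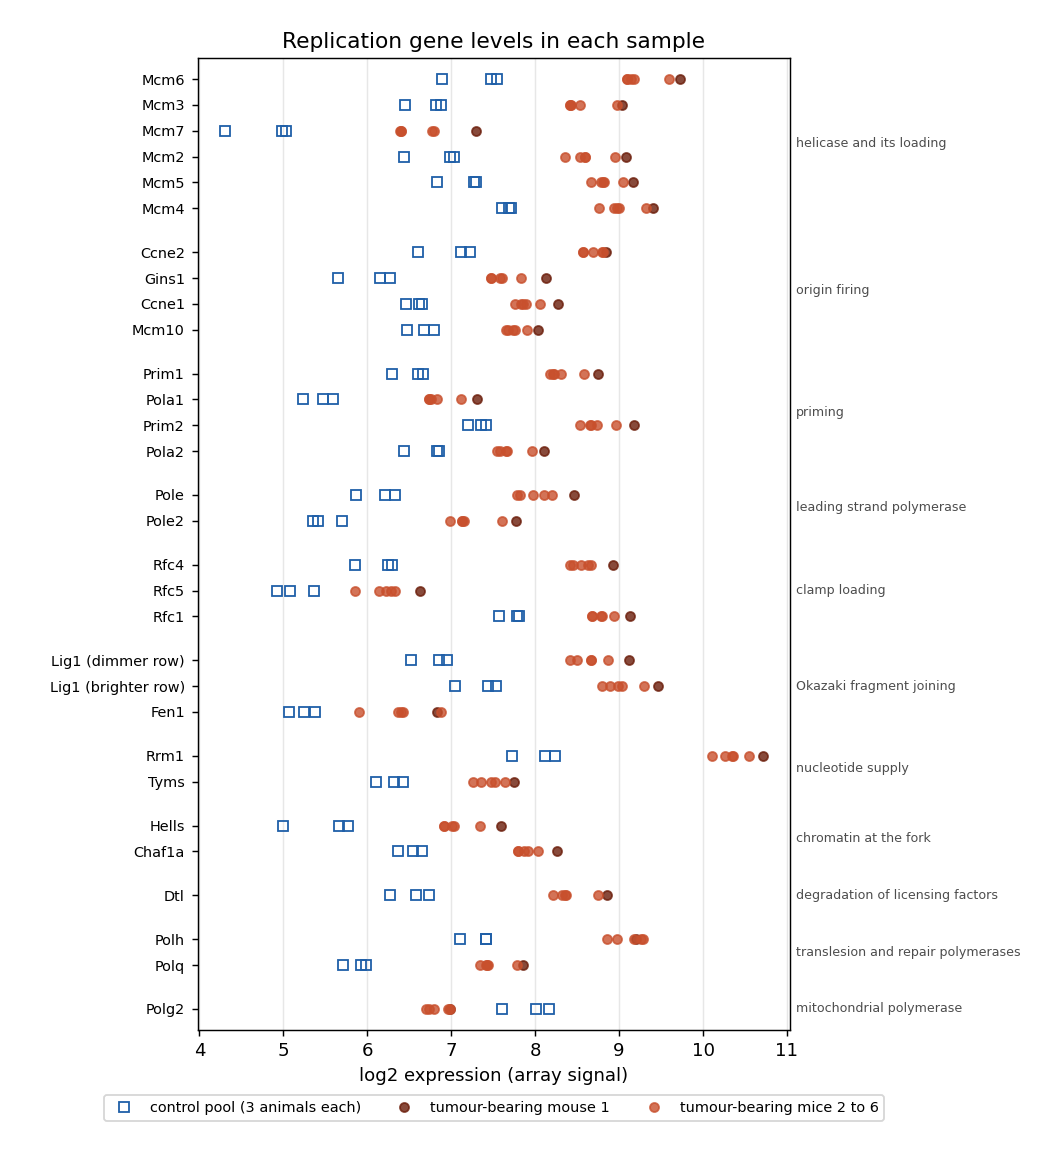
Log2 expression (horizontal axis, array signal) of each row in every sample, grouped by role. Squares are the 3 control pools, the dark circle is tumour-bearing mouse 1 and the lighter circles are mice 2 to 6. The circles lie to the right of the squares in 29 rows, and to the left for Polg2.

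The plot of levels by sample groups the rows by role, and each row is read on its own, since levels of different rows depend on their probes. Of the 30 rows, 7 had a group mean below the median of every array (Mcm7, Pola1, Pole2, Rfc5, Fen1, Hells and Polq). The rows named Mcm7 and Rfc5 are uncertain as to gene: Mcm7 lies on chromosome 5 but its row's identifier stands among those of chromosome 16, and Rfc5 lies on chromosome 5 but its row's identifier stands among those of chromosome 4. The rows of Fen1 and Gins1 are named through clone accessions rather than RefSeq transcripts.

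The rows named for the 6 subunits of the helicase ring were all higher in the tumour-bearing mice. Their differences ran from 1.40 to 2.00 on the log2 scale, or 2.64-fold to 4-fold. The row named Mcm7, uncertain as to gene, is counted among them. Mcm6 had the highest difference among them. Its log2 level was 7.54, 6.89 and 7.48 in the control pools, and 9.10, 9.16 and 9.72 as the lowest, median and highest of the mice. The lowest mouse was thus 1.56 above the highest pool, and the difference of means was 2.00 ± 0.20 (SE, 6 mice and 3 pools). Mcm4 had the smallest difference of the ring, with pools at 7.69, 7.60 and 7.71 and mice from 8.76 through a median of 8.99 to 9.41. Its pools lay closer together than those of any other helicase subunit, with an SD of 0.06 (n = 3), and the difference was 1.40 ± 0.14 (SE). Mcm3, Mcm2 and Mcm5 lay between them, at 1.92, 1.87 and 1.75. The row named Mcm7 was higher by 1.90 ± 0.24 (SE), from pools at 4.30, 5.03 and 4.99 to mice between 6.39 and 7.29. It had the widest spread of the ring in both groups, and unlike the other subunits its lowest pool was pool 1 and not pool 2.

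Several of these helicase genes carry an E2F motif before their start. E2F proteins are the transcription factors that turn on replication genes when a cell enters S phase. Promoters came from RefSeq on GRCm38.p6, where 24 of the 29 genes had an entry. Pole, Ccne2, Gins1, Prim2 and Mcm4 had none. The motif searched was TTTGGCGC, TTTGCCGC, TTTCGCGC or TTTCCCGC on either strand, within 250 bases before the start. It was found in 6 of the 24 genes, Mcm5, Mcm6, Mcm7, Dtl, Hells and Pola1. A stretch of each is printed on the strand of its gene, 5′ to 3′, with the matched letters in capitals. In Mcm5 and Mcm6 the capitals are 2 matches that overlap, 1 on each strand.

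Mcm6: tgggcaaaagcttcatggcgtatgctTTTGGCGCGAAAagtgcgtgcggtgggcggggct
Mcm5: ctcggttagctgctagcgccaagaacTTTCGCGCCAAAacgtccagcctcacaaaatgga
Mcm7: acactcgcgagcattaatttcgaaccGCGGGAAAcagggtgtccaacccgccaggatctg
Pola1: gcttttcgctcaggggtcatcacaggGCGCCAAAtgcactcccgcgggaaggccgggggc
Hells: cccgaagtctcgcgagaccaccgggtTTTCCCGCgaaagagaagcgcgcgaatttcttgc
Dtl: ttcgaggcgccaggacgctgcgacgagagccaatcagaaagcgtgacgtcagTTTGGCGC

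The Mcm6 stretch is chr1:128359782-128359841 on the minus strand, and the Mcm5 stretch is chr8:75109330-75109389 on the plus strand. The Mcm7 stretch is chr5:138172015-138172074 on the minus strand, and the Pola1 stretch is chrX:93632260-93632319, also minus. Hells lies at chr19:38930902-38930961 on the plus strand and Dtl at chr1:191575545-191575604 on the minus strand. Each stretch lies just upstream of the annotated start of its gene. Counted from the start, the Dtl match begins at position -8 and the Mcm7 match at -165, the nearest and the farthest of the 6 stretches. A match is a description of these letters and not a measured site.

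The motif was present in 25.0% of the 24 promoters. It was present in 7.54% of 358 promoters of other genes the authors listed as higher, 1.1% of 272 promoters of genes listed as lower, and 2.16% of all 27025 promoters. Promoters of the replication genes were richer in G and C, with a median of 59.0% against 52.8% for all. Among the 8663 promoters with a G and C content of at least 59.0%, 4.03% held the motif. That set starts at the median of the replication genes, so it is not matched to their promoters. With TT in place of TTT at its head, the shares became 41.7% of the replication genes, 20.4% of the other higher genes, 9.01% of all promoters and 18.9% of those with the higher G and C content. The CCAAT box, the site of the general factor NF-Y, was found in 50.0% of the replication promoters, 51.7% of the other higher genes and 37.5% of all. These shares were not tested. The members differed among themselves too: Mcm2 and Mcm3, with differences close to those of Mcm5 and Mcm6, held a CCAAT box and no match to the E2F motif in this window.

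**Figure D2:**
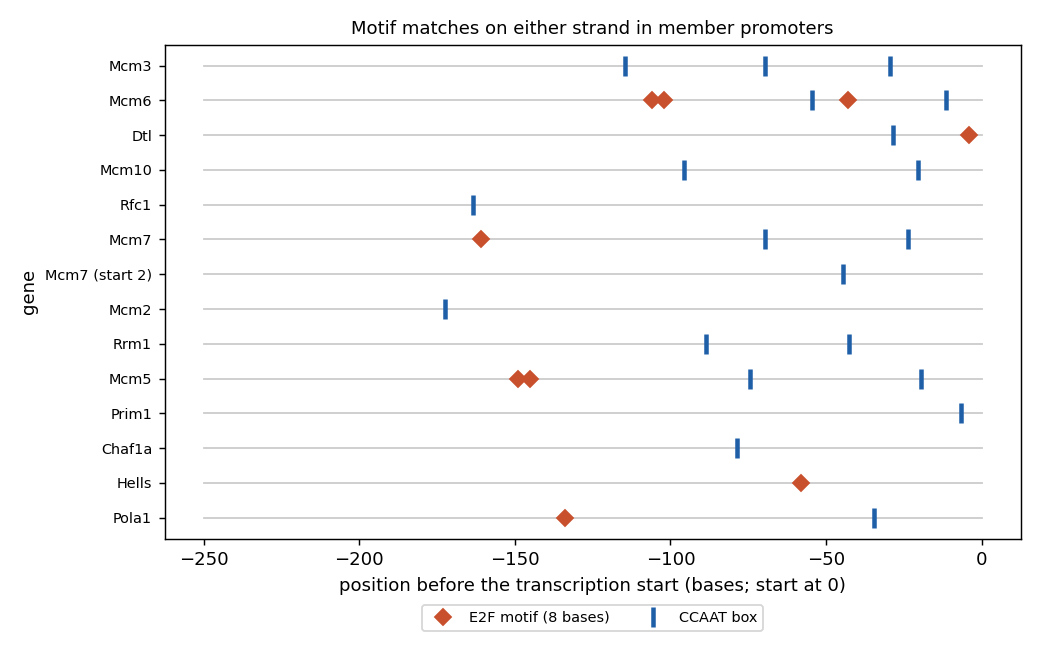
Matches to the 8-base E2F motif (diamonds) and the CCAAT box (bars) on either strand, by distance in bases before the annotated transcription start (0), for the genes with at least 1 match. Mcm7 has a second annotated start, drawn as its own line. Of 24 genes, 6 hold the E2F motif and 12 hold a CCAAT box.

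Among the genes that fire origins, the differences ran from 1.15 to 1.73. Ccne2, a cyclin E that activates Cdk2 at the entry to S phase, had pools at 7.23, 6.61 and 7.12 and mice from 8.57 through 8.74 to 8.84. The SD over the mice was 0.12 (n = 6), less than the pools' SD of 0.33 (n = 3). The difference was 1.73 ± 0.13 (SE), an SE that assumes the same spread in both groups. Without pool 2 that difference was 1.54, and without pool 1 it was 1.85. Ccne1, the other cyclin E, was higher by 1.37 and Gins1, a subunit of the GINS complex, by 1.66. Mcm10, which helps the loaded helicase to start unwinding, had pools at 6.68, 6.47 and 6.79 and mice from 7.65 through 7.75 to 8.03, a difference of 1.15 ± 0.10 (SE).

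The 4 subunits of polymerase alpha and primase were all higher, by unequal amounts. Prim1, the catalytic primase subunit, had pools at 6.67, 6.29 and 6.61 and mice from 8.18 through 8.27 to 8.75, a difference of 1.85 ± 0.15 (SE). Pola2, the accessory subunit of the same complex, had pools at 6.85, 6.44 and 6.83 and mice from 7.55 through 7.65 to 8.10. Its difference of 1.04 ± 0.15 (SE), or 2.06-fold, was the smallest of the nuclear genes and just inside the authors' 2-fold limit. Without mouse 1, without pool 2 or after quantile normalization of all samples it was below that limit. Pola1, the catalytic subunit of polymerase alpha, and Prim2, the large primase subunit, lay between, at 1.49 and 1.46.

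Polymerase epsilon was represented by its catalytic subunit Pole and its second subunit Pole2. Pole had pools at 6.21, 5.87 and 6.33 and mice from 7.78 through 8.04 to 8.46, a difference of 1.92 ± 0.16 (SE). Pole2 had pools at 5.70, 5.35 and 5.41 and mice from 6.98 through 7.14 to 7.77, a difference of 1.81 ± 0.19 (SE). These 2 differences lay within 1 SE of each other.

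Rfc4, a subunit of the clamp loader, had the largest difference of the 30 rows. Its pools were at 6.25, 5.86 and 6.29 and its mice from 8.42 through 8.59 to 8.93, so the groups were separated by a gap of 2.13. The difference of 2.48 ± 0.13 (SE) is 5.56-fold. Rfc1, the large subunit of the same loader, had pools at 7.81, 7.57 and 7.78 and mice from 8.68 through 8.79 to 9.13, a difference of 1.11 ± 0.11 (SE). The row named Rfc5, the uncertain one, had the smallest gap of all, 0.50, between pools at 5.08, 5.36 and 4.93 and mice from 5.85 to 6.63.

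Lig1, the ligase that seals Okazaki fragments, was measured by 2 rows. The dimmer row had pools at 6.85, 6.52 and 6.95 and mice from 8.42 through 8.67 to 9.12, a difference of 1.93 ± 0.16 (SE). The brighter row had pools at 7.44, 7.05 and 7.53 and mice from 8.80 through 9.01 to 9.46, a difference of 1.74 ± 0.17 (SE). The rows gave the same order of pools, and mouse 1 was highest and mouse 6 lowest in both. Fen1, the nuclease that trims the fragments before ligation, had pools at 5.38, 5.25 and 5.07 and mice from 5.90 through 6.41 to 6.88. Its difference of 1.23 ± 0.21 (SE) came with an SD over the mice of 0.36 (n = 6), the widest of the nuclear genes.

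Rrm1, the large subunit of ribonucleotide reductase, which makes deoxyribonucleotides, had the second-largest difference. Its pools were at 8.12, 7.73 and 8.24 and its mice from 10.11 through 10.35 to 10.72. The difference was 2.36 ± 0.15 (SE), or 5.14-fold, with a gap of 1.87 between the groups. Tyms, thymidylate synthase, which makes the thymidine nucleotide, had pools at 6.43, 6.10 and 6.32 and mice from 7.26 through 7.50 to 7.75, a difference of 1.22 ± 0.12 (SE). The groups of Tyms stood 0.83 apart, less than those of Rrm1.

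Hells, a chromatin remodeller needed for DNA methylation, had pools at 5.77, 5.0 and 5.66 and mice from 6.92 through 7.02 to 7.59, a difference of 1.66 ± 0.21 (SE). Pool 2 stood well below both other pools there. Chaf1a, the large subunit of the factor that lays histones on new DNA, had pools at 6.55, 6.37 and 6.65 and mice from 7.79 through 7.89 to 8.26, a difference of 1.42 ± 0.11 (SE). Dtl, the substrate receptor of the ubiquitin ligase that destroys the licensing factor Cdt1 in S phase, had pools at 6.73, 6.27 and 6.58 and mice from 8.21 through 8.36 to 8.86. Its difference was 1.95 ± 0.17 (SE), close to those of the helicase subunits.

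Polymerases that work outside the normal fork were represented too. Polh, which copies past ultraviolet damage, had pools at 7.41, 7.11 and 7.42 and mice from 8.86 through 9.19 to 9.28, a difference of 1.81 ± 0.11 (SE). Polq, which joins broken ends, had pools at 5.93, 5.71 and 5.99 and mice from 7.34 through 7.43 to 7.86, a difference of 1.66 ± 0.13 (SE). Polg2, the accessory subunit of the polymerase that copies mitochondrial DNA, was the only lower row. Its pools were at 8.17, 8.01 and 7.61 and its mice from 6.70 through 6.88 to 6.98, a difference of -1.07 ± 0.13 (SE). Without pool 3 the difference of Polg2 was -1.24, and without pool 1 it was -0.95, short of 2-fold.

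**Figure D3:**
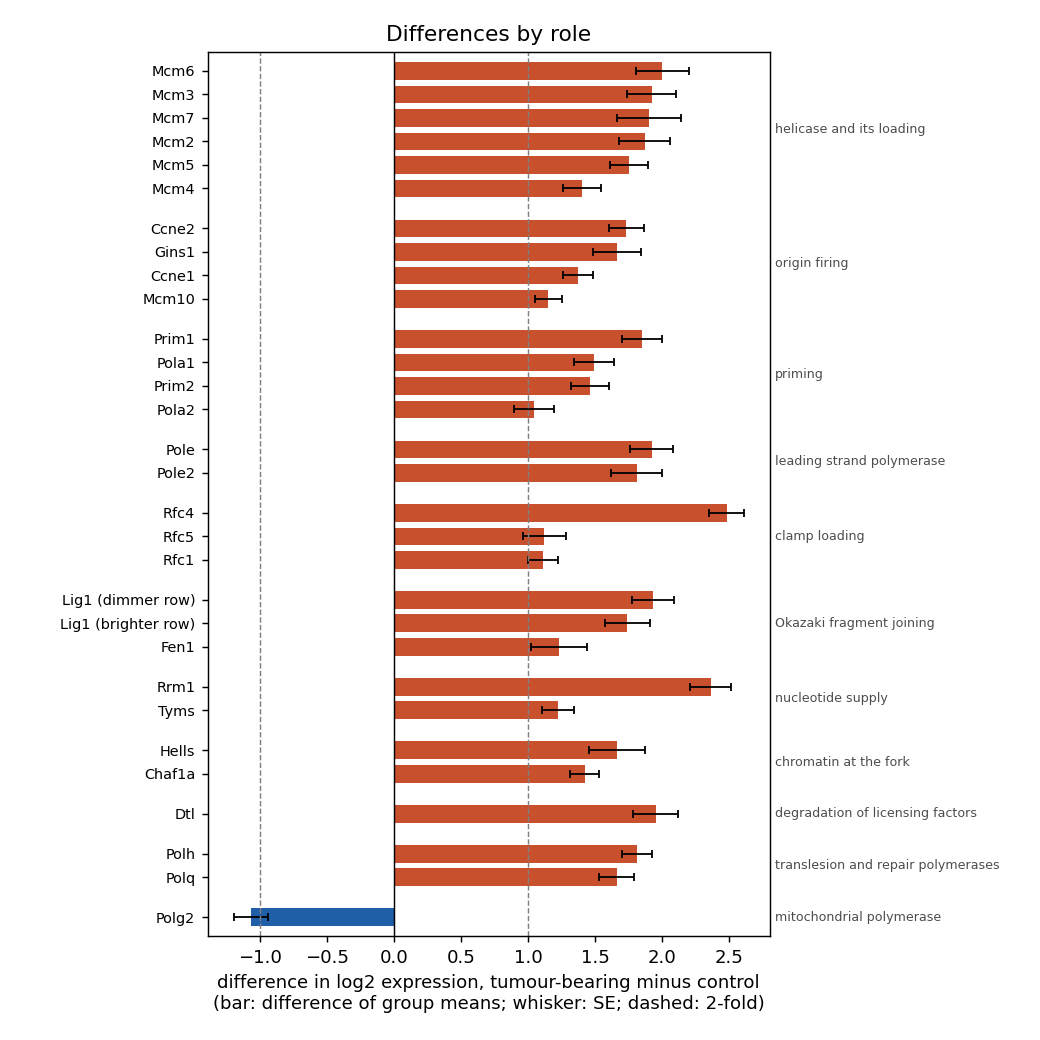
Difference of group means in log2 expression, tumour-bearing minus control, for each row (bars), with the standard error of the fit across all rows as whiskers and dashed lines at 2-fold. Rfc4 (2.48) and Rrm1 (2.36) are the longest bars, and Polg2 (-1.07) is the only one below 0.

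The mice were not equal in these genes. The mean log2 level of the 28 nuclear genes (1 row per gene) was 8.49, 8.30, 8.08, 7.99, 8.05 and 7.93 in mice 1 to 6, and 6.60, 6.29 and 6.59 in pools 1 to 3. Mouse 1 had the highest level of all mice in 26 genes, the exceptions being Fen1 and Polh, where mouse 3 was highest. Mouse 6 was the lowest in 21 genes. Mice 1 and 2 held the 2 highest places in 25 of 28 genes, or 89.3%, against 53.1% of the other 484 rows listed as higher and 9.41% of all rows. Pool 2 was the lowest pool in 25 genes, or 89.3%, against 76.2% of the other higher rows and 35.0% of all rows.

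The same samples stood out, by less, in the other rows listed as higher. Mouse 1 lay on average 0.35 above the mean of its group in the 28 genes, 0.21 above it in the other higher rows and 0.002 above it over all rows. The corresponding means for pool 2 were -0.20, -0.14 and -0.008. The median SD over the mice was 0.241 in the 28 genes, 0.172 in the other higher rows and 0.107 in all rows, and without mouse 1 it was 0.17 in the 28 genes. These values are given as a description, since the authors' selection also used the spread within groups.

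**Figure D4:**
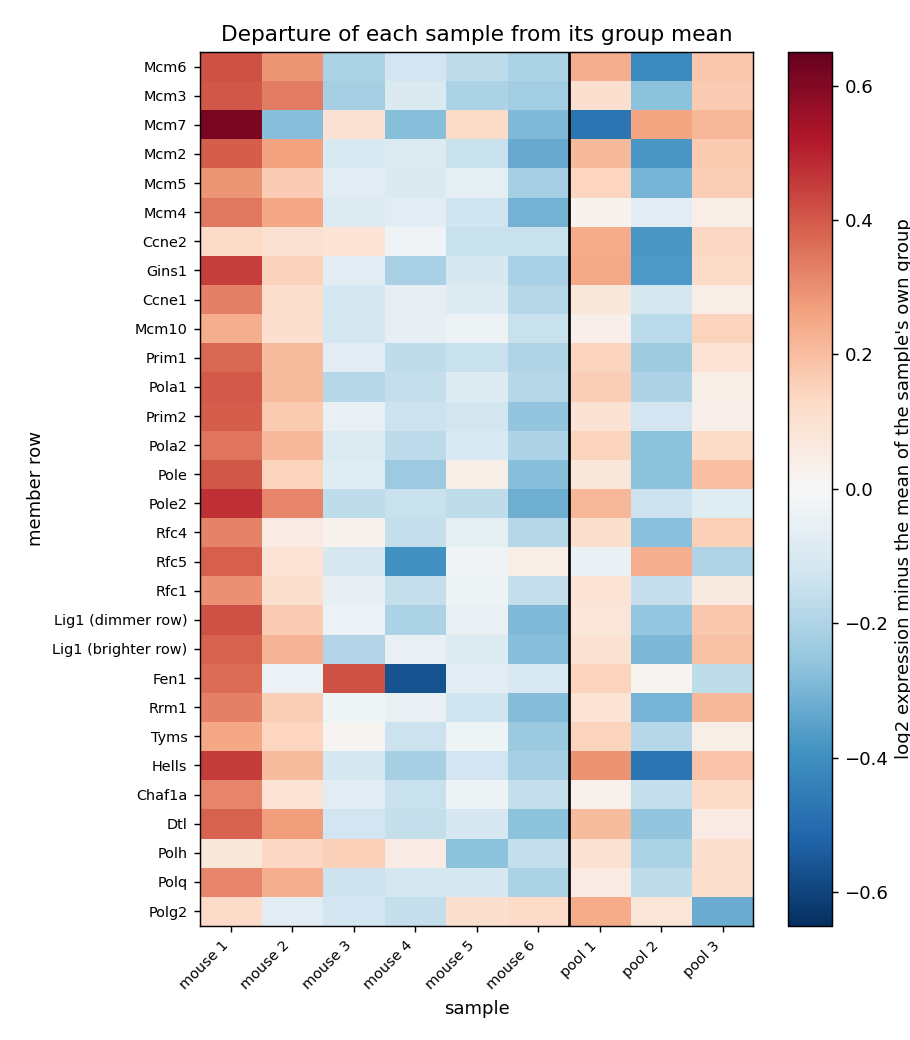
Log2 expression of each row minus the mean of the sample's own group (colour scale), with mice 1 to 6 on the left of the black line and control pools 1 to 3 on the right. Red is above the group mean and blue below. Mouse 1 lies above its group mean in all 28 nuclear genes, and pool 2 below its own in 25.

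The sizes of the differences were also taken without these samples. Without mouse 1 the 28 differences ran from 0.97 to 2.41, and without pool 2 from 0.91 to 2.34. With both left out they ran from 0.84 to 2.27, and Rfc1 and Pola2 fell below 2-fold.

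A wider list of 134 genes of the replication pathway, sorted by role, was set beside the members. Names exist only for the rows the authors listed, so 54 of these genes have one, 52 higher and 2 lower. Over all rows measured, the authors listed 1.62% as higher and 3.05% in either direction. Of the 54, 28 are among the genes described above, so the counts by role partly repeat the rule. The other named genes extend the same roles. In licensing, 7 of 17 listed genes had a named row, all higher, the uncertain row of Mcm7 among them. The new name there was Orc6 of the origin recognition complex (1.10). In firing, 14 of 18 were named, all higher. They included Ticrr (2.16) and Mtbp (1.25), which bring helicase cofactors to origins, Ccna2 (2.02), the S-phase cyclin A, and Dbf4 (1.85), the activator of the Cdc7 kinase. Cdc25a, the phosphatase that activates Cdk2, was higher by 1.67, Topbp1 by 1.59, and Cdk2 itself by 1.43. The helicase cofactor Cdc45 was higher by 1.43, and the GINS subunits Gins4 and Gins3 by 1.26 and 1.21.

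Of 36 polymerase and clamp genes, 15 were named, all higher, the uncertain row of Rfc5 among them. The new names there were Atad5, which unloads the clamp, at 1.92, and Rnaseh2b, a subunit of the nuclease that removes ribonucleotides, at 1.53. Fork protection had 6 of 15 named, all higher. They included the topoisomerase Top2a (2.18), Wdhd1 (1.82), which ties polymerase alpha to the helicase, the checkpoint mediator Clspn (1.59) and its kinase Chek1 (1.45), and Tipin (1.07). Chromatin assembly and methylation had 6 of 12, all higher, including the histone chaperones Asf1b (2.10) and Asf1a (1.25), the maintenance methyltransferase Dnmt1 (1.68) and the histone acetyltransferase Hat1 (1.29).

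Nucleotide supply was the mixed role, with 6 of 36 genes named, 4 higher and 2 lower. Dtymk, which phosphorylates thymidine monophosphate, was higher by 1.51. Dck, the salvage kinase for deoxycytidine, had pools at 10.25, 10.42 and 10.02 and mice between 8.96 and 9.31, a difference of -1.01. Nme2, a nucleoside diphosphate kinase, was lower too, at -1.09, in a row whose identifier stands among those of chromosome 8 while the gene lies on chromosome 11.

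Of 19 listed cell cycle inhibitors 4 were named, in both directions. The pocket protein Rbl1 was higher by 1.49 and Cdkn2c, an inhibitor of Cdk4 and Cdk6, by 1.47. The antiproliferative genes Btg1 and Btg2 were lower, at -1.28 and -1.11. As every named row was selected by the authors on these samples, none of these counts is independent evidence of a direction.

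**Figure D5:**
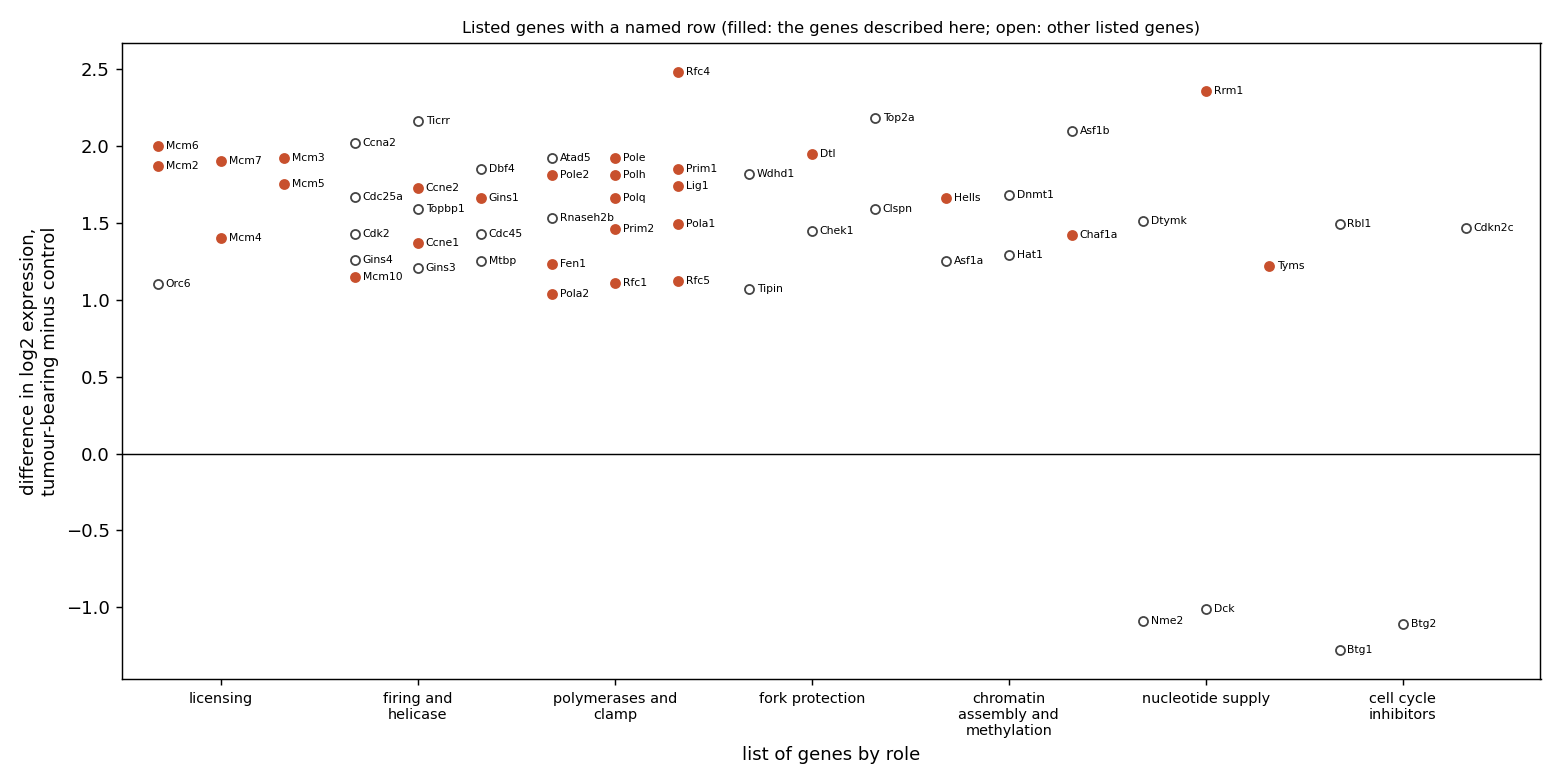
Difference in log2 expression, tumour-bearing minus control, of the listed genes with a named row that are reported here, by role. Filled circles are the genes described above and open circles other listed genes. All genes drawn lie above 0 except Nme2 and Dck in nucleotide supply, and Btg1 and Btg2 among the inhibitors.

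Markers of the sorted cells and of other cells differed between the groups as well. Of 11 markers of the gate, 4 were named. Mpo and Elane, primary granule proteins of granulocyte precursors, were higher by 4.03 and 3.25 and the granulocyte factor Cebpe by 1.20, while Csf3r, the receptor for the growth factor of neutrophils, was lower, at -1.01. The summed level of these 4 genes, on the log2 scale, was 13.46 to 14.01 in the mice and 12.69 to 12.75 in the pools. The brightest rows in that sum were Mpo and Elane in the mice (means 12.31 and 12.08) and Csf3r in the pools (12.27). The sum thus mixes rows with opposite changes, and levels of different rows depend on their probes. Itgam, Ly6g and Ly6c1, which define the gate, have no named row and were not analysed here. Mpo was highest in mice 2 and 1 (12.68 and 12.61) and lowest in mouse 6 (11.71) and in pool 2 (7.70). Elane had the same highest mice (12.32 and 12.20), lowest mouse (11.62) and lowest pool (8.03). Cebpe was instead lowest in mouse 1 (11.13) and highest in mouse 3 (11.34), with pool 2 again lowest (9.84). Csf3r was lowest in mouse 1 (11.06) and highest in mouse 5 (11.46) and in pool 2 (12.43).

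Of 12 stem and progenitor markers only Myb was named, at 8.68 to 9.22 in the mice and 7.03 to 7.39 in the pools. Of 19 erythroid markers only Tfrc, the transferrin receptor that dividing cells of many kinds express, was named. Its levels were 7.71 and 7.96 in mice 1 and 2, 7.05 to 7.20 in the other mice and 5.99 to 6.33 in the pools. Haemoglobin genes and Klf1, which define erythroid cells, have no named row. Of 14 dendritic cell and macrophage markers 4 were named, Itgax, Cd209a, Adgre1 and Csf1r, all lower. Their summed level was 9.86 to 10.38 in the mice and 12.12 to 12.29 in the pools. These markers do not separate such cells from monocytes inside the gate, and which cells changed was not tested. Of 13 B and plasma cell markers only Cd22 was named, at 6.01 to 6.40 in the mice and 8.18 to 8.58 in the pools. None of 14 T and natural killer cell markers or 8 megakaryocyte markers was named. The part of cell composition in the levels of the replication genes was not tested.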

How the data were processed

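Total RNA of sorted CD11b+Gr1+ spleen cells was amplified, biotin-labelled and hybridised to Affymetrix expression arrays, per the labels' protocols. The deposited table holds log2 expression, already normalized by the authors. Affymetrix Power Tools, with RMA, PLIER and build mm9, is named in the submitters' processing notes. Their versions are not given in the sources used, nor is it said whether RMA or PLIER gave the deposited values. The log2 scale was read from the values (1.95 to 13.95), with array medians of 5.92 to 5.99. Correlations between arrays were 0.9847 to 0.9907 among mice, 0.9864 to 0.9896 among pools and 0.9542 to 0.9737 across groups. Per the series design, the authors listed rows by a p below 0.001 in a two-sample test with permutations and a change of at least 2-fold. Their 964 rows (513 higher, 451 lower) were found in the value table by their 9 values, equal to 5 decimals, with 1 match each. The other 30684 rows have no name here.

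A linear model was fitted to all 31648 rows (limma 3.58.1, R 4.3.3) with moderated two-sided tests, Benjamini-Hochberg adjustment and a threshold of 0.05. It was also run on simulated data, with the same spread in both groups of a row and no shift of a whole sample. These data differ in both respects, so nothing about the standard errors is read from the simulation. All standard errors come from the linear model, which gives single mice and pools the same spread within a row. Where the pools vary more than the mice, as in Ccne2, they can be too small. Tables, promoter searches and figures used Python 3.11.15. Every row found by the rule is named, with values for the extremes of each role and for genes with more than 1 row, and the named genes of the pathway lists are given, except 1 that is counted but not reported here. For Lig1 the brighter row stands for the gene in counts of genes. The members and all lists were chosen with earlier results of these data known. Replicates are separate mice or separate pools per the labels. The labels record no batch, so none could be examined. The number of arrays limits the precision. Alternatives were median centring, quantile normalization, other tests and priors, array weights, a replicate block, a filter on dim rows, leaving out each sample, 1 row per gene, symbols only, and other motif forms. Leaving out Mcm7 and Rfc5, and leaving out mouse 1 and pool 2 together, were chosen after seeing the data.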

Additional observations from a re-analysis of the deposited data

How the results depend on the processing

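Limma called 7333 of 31648 rows (4538 higher), against 3812 with a Welch test and 4289 with the replicate number as a block for the 3 mice and 3 pools that share numbers. Other settings gave 6611 to 7584 rows, and leaving out each sample 6201 to 7113. Quantile normalization split the calls into 4014 higher and 3570 lower. The titles number the replicates but give no pairing. Over all rows, deviations of same-numbered mouse and pool correlated at 0.094, 0.007 and 0.023. Pairs with different numbers were not examined, so whether same-numbered samples share an effect was not tested. The filter on dim rows removed Rfc5. Calls on the replication rows are not compared between settings, since these rows were chosen from this contrast. Leaving out each sample gave a median difference of 1.562 to 1.785 around 1.697, a range of the mice's mean levels of 0.367 to 0.561, and a median SD over mice of 0.17 to 0.261. The range without mouse 1, 0.367, was the lowest of these. Of 330 alternative values for single rows 328 moved by less than the row's SD over the mice, and none changed sign. Leaving out 1 of 6 mice cannot move a difference of means by that much. As the groups do not overlap in these rows, leaving out 1 sample cannot change a sign either. No stability is read from these counts. Without Mcm7 and Rfc5 the median difference stayed 1.697, as it had to, since Mcm7 lay above that median and Rfc5 below it. The range of the mice's mean levels was then 0.556. The motif share of 25.0% became 41.7% with the shorter motif and 37.5% in the whole window of 300 bases, where 10.6% of the other higher genes and 2.6% of all genes held it. Among 31 values examined over the 6 mice, none had a single mouse apart by Dixon's criterion. That criterion can miss mouse 1 where mouse 2 is high as well, as in most of these genes, so nothing is concluded from it. Rows near or below the array medians limit what Mcm7, Pola1, Pole2, Rfc5, Fen1, Hells and Polq can show, and no background call was made.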
